A study of Mus musculus with 12 samples.

Results

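The nuclear-encoded genes of the mitochondrial respiratory chain were described in sorted endothelial cells of mouse mesentery and epididymal fat. Members were the rows annotated as protein coding whose symbol begins with Nduf, Uqcr or Atp5, with Cox followed by a digit from 4 to 8 and a letter from a to c, or is Sdha, Sdhb, Sdhc or Sdhd. This rule found 83 of the 27825 genes in the deposited table and used no measured value. Of these, 82 had a mean of at least 10 normalized counts over the 12 libraries and were tested. The exception was Cox8c, a testis isoform. Another 9 genes with matching symbols (among them Ndufs1, Ndufb1, Atp5d and Cox6c) were not members, because the table's biotype column describes 1 transcript of each and does not call it protein coding. They are described separately. The rule also leaves out Cox4i1 and Cox4i2, whose symbols have an i in that place.

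All 12 libraries came from male mice that carried the ROSA26-eYFP reporter (+/+) and Cdh5-CreERT2, a tamoxifen-activated Cre recombinase driven by the promoter of the endothelial cadherin gene Cdh5. Mice aged 6 weeks were fed tamoxifen during 2 weeks. At 8 weeks they were assigned to chow (normal diet, 5.8% fat) or to the high fat diet (60% fat), on which they stayed 12 to 13 weeks. Tissue was digested with actinomycin D present to block transcription, red cells were lysed, the tissue of 6 mice was pooled per sample, and YFP-positive cells were sorted for RNA-seq. The 4 groups were mesentery on chow, mesentery on high fat, epididymal fat on chow and epididymal fat on high fat, each with 3 libraries lettered A, B and C. The protocol speaks of 2 independent replicates where the titles give 3 letters, so p-values measure the spread between these libraries, which may be partly technical. Tamoxifen, reporter and Cre were common to every group, so nothing here bears on their effect.

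The respiratory chain moves electrons from NADH and succinate to oxygen in the inner mitochondrial membrane. Complex I takes electrons from NADH and complex II from succinate. Complex III passes them to cytochrome c, and complex IV passes them on to oxygen. The proton gradient that complexes I, III and IV build drives ATP synthase. Most subunits are encoded in the nucleus and imported, while the mitochondrial genome encodes core subunits of every complex except complex II. Endothelial cells are known for relying largely on glycolysis for ATP.

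Recovered library totals ranged from 8348897 to 25397963 reads. Endothelial markers were detected throughout: none of the 12 markers was at 0 in any library, and Pecam1 ranged from 3730 to 12974 normalized counts. Their sums ran from 129468 to 208397 normalized counts in mesentery and from 50042 to 109322 in epididymal fat. In every epididymal library the adipocyte sum given below was higher, and on high fat so was the macrophage and leukocyte sum. The adipocyte sum was also the higher one in mesentery high fat A (158048 against 138269) and C (167535 against 129468), and the lower one in the other mesentery libraries. A sum can be led by a single abundant gene, so these sums do not rank the cell types by their RNA. Markers of other cells were present as well and differed between tissues. The summed pancreatic acinar markers ran from 42891 to 271010 normalized counts in mesentery and from 183 to 554 in epididymal fat. The red cell markers ran from 177 to 411 in mesentery and from 31944 to 44020 in epididymal fat. The single testis germ cell marker in the table, Odf1, stayed at or below 29.2 normalized counts. Every sample description also holds a number, and the libraries numbered 87 and 88 (chow C and high fat A of both tissues) stand apart in epididymal fat, where their olfactory and vomeronasal receptor reads reached 1941 and 2082 CPM, against 99.7 to 186 in the other 4. In mesentery number 87 was at 3065 CPM, but number 88 at 592 CPM lay within the 253 to 1918 CPM of the remaining libraries. What the number stands for is not stated. In bulk RNA, fewer cells of a type and less RNA per cell cannot be told apart.

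Levels among the members spanned a wide range. Mean normalized counts over the 12 libraries ran from 11798 for Atp5b, the catalytic beta subunit of ATP synthase, down to 8.73 for Cox8c, with a median of 2139 over the 83 genes. A mean of at least 1000 was reached by 66 members. The 76 members that are not tissue-restricted isoforms all lay at or above 228, the mean of the complex I assembly factor Ndufaf5. Long transcripts collect more reads, so levels of different genes were compared per kilobase of exon, with lengths from a GRCm38 annotation and not from the authors' build. Each length was the union of all annotated exons of a gene, which can exceed the length of the transcript that is mainly made. On that scale the highest member was Cox6a1, a small subunit of complex IV, with 12111 normalized counts per kilobase, followed by Cox6b1 of complex IV with 7486 and Uqcrb of complex III with 7100. Among members that are not tissue-restricted, the complex I accessory subunit Ndufb2 had the lowest value on this scale, 60.1 normalized counts per kilobase. A low value can come from a long exon union as well as from few reads, so this order is not a firm ranking of expression.

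The promoters of the members were read next. Windows from 250 bases before to 50 bases after the start were available from RefSeq (GRCm38.p6) for 71 of the 83 members. Windows were searched on both strands for 3 short motifs, each named for a factor or family long linked to respiratory chain promoters. A gene with several starts was counted when any of its windows matched. The NRF1 core GCGCATGC was found for 11 of the 71 members (15.5%), against 688 of 17491 protein-coding genes (3.93%). The ETS core CCGGAAG was found for 16 members (22.5%), against 12.9% of all protein-coding genes. The YY1 core AANATGGCG was found for 11 members (15.5%), against 3.64%. Of the 18 members with a window that were called between tissues, 2 (11.1%) held the NRF1 core, 5 (27.8%) the ETS core and 2 (11.1%) the YY1 core. No member had both the NRF1 and the YY1 core, and 4 had both the NRF1 and the ETS core. A match is a description of letters, not a shown binding site. The 120 bases before the start are shown for 6 members, on the gene's strand and 5′ to 3′, with motif letters in capitals. Atp5k (chr5:108434400-108434519, minus strand), Sdhb (chr4:140961151-140961270, plus strand) and Ndufa8 (chr2:36049339-36049458, minus strand) show the NRF1 core, at 2 overlapping positions in Atp5k. Cox6b1 (chr7:30626115-30626234, minus strand) and Uqcrh (chr4:116075071-116075190, minus strand) show the ETS core, read here from the other strand. Ndufa7 (chr17:33824525-33824644, plus strand) shows the YY1 core. The 120 bases before another Ndufa7 start (chr17:33824452-33824571), not shown, held none of the motifs. Atp5k, Cox6b1, Uqcrh and Ndufa7 are among the members that differed between tissues, while Sdhb and Ndufa8 are the most abundant members of complexes II and I.
Atp5k: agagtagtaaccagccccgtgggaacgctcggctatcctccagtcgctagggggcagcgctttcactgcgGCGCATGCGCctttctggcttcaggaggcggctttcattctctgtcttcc
Sdhb: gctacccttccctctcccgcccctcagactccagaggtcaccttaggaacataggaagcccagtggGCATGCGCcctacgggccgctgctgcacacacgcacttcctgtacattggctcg
Ndufa8: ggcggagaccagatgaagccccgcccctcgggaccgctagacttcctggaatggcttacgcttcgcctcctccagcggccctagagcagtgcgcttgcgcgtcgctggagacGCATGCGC
Cox6b1: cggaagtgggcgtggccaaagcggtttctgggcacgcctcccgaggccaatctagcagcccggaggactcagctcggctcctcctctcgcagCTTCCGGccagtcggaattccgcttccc
Uqcrh: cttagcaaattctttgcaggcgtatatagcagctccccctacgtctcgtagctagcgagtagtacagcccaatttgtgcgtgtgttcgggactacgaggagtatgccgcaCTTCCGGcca
Ndufa7: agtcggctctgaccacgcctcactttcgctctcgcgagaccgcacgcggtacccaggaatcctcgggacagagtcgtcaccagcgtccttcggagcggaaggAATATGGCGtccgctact

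The first comparison asked how endothelial cells of both sites differed on chow. Nuclear respiratory chain transcripts were higher in epididymal fat than in mesentery, with a positive change in nearly every gene. Over the 76 unrestricted members the log2 changes ran from -0.06 to 1.09. The summed level of the 83 members was 166146, 207576 and 147149 normalized counts in mesentery replicates A, B and C, and 264145, 264026 and 228256 in epididymal fat. All 3 epididymal libraries lay above all 3 mesentery libraries, and the ratio of the group means was 1.45. Of the 82 tested members 80 had a positive log2 change (epididymal minus mesentery), with a median of 0.50, against -0.08 over all 22238 genes tested. With limma on log2(normalized count + 1) and Benjamini-Hochberg adjustment over all genes tested, 16 members were called higher at an adjusted p under 0.05 (19.5%) and none lower. By comparison, 7.32% of all genes tested were called higher and 5.47% lower. An unadjusted p under 0.05 was found for 47 members. The 3 libraries of each group did not overlap for 46 members, all higher in epididymal fat, where 16.0% of all genes tested were higher without overlap and 12.7% lower.

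**Figure D1:**
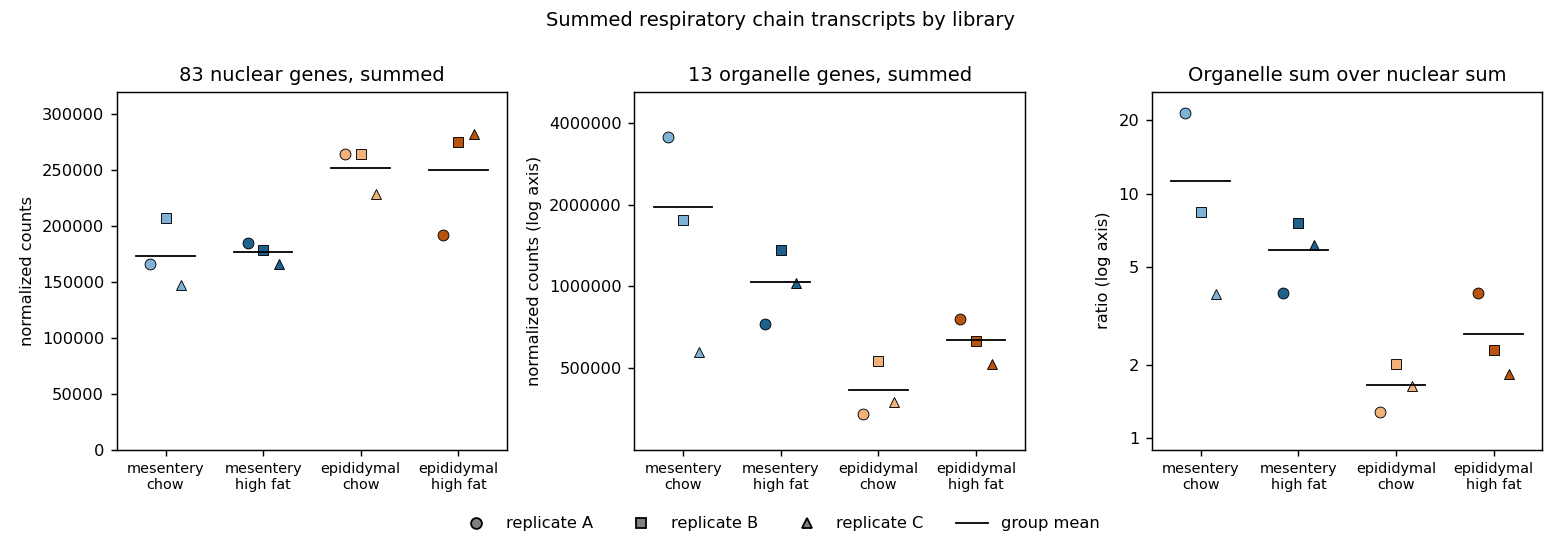
Summed normalized counts of the 83 nuclear genes (linear axis), of the 13 organelle-encoded genes (log axis), and the ratio of the organelle sum to the nuclear sum (log axis), for each library (marker shape gives the replicate letter) with the group mean as a bar. The nuclear sum is higher in epididymal fat on chow without overlap, and the organelle sum is highest in mesentery chow A, at 3535711 normalized counts.

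The same comparison on the high fat diet gave a similar picture. The summed level was 184537, 178942 and 166324 normalized counts in mesentery and 192316, 275587 and 282103 in epididymal fat, a ratio of means of 1.42. Epididymal replicate A, a library numbered 88, lay close to the mesentery libraries and the other 2 well above them. Positive log2 changes were found for 77 of 82 members, with a median of 0.47, against 0.06 over all genes tested. The test called 15 members higher (18.3%) and none lower, where 4.91% of all genes tested were called higher and 3.43% lower, and 44 members had an unadjusted p under 0.05. Libraries did not overlap for 38 members higher in epididymal fat and 1 lower, against 15.1% and 11.2% of all genes tested. Across both diets 22 members were called at least once, 9 on both diets, 7 on chow only and 6 on high fat only. Whether the tissue difference itself changed with diet was tested as an interaction, and no member was called there.

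The counts of called members depend on single libraries and on scaling, while the direction does not. In none of the alternatives run was a member called lower in epididymal fat on either diet. On chow the count was 5 without mesentery A, 6 without epididymal A, 4 without epididymal B and 26 without high fat epididymal A. On high fat it was 8 without mesentery A or without mesentery C, 4 without mesentery B, without epididymal B or without epididymal C, and 29 without epididymal A. With the libraries numbered 50 to 53 alone it was 26 on chow and 38 on high fat. Rescaling the columns to the same total moved the median of all genes on high fat from 0.06 to -0.12, and gave 40 calls on chow and 3 on high fat. Relative to the median of all genes, the median member was higher by 0.58 on chow and 0.41 on high fat as deposited, and by 0.58 and 0.40 after rescaling. On chow this gap was 0.32 without mesentery C and 0.80 without mesentery B. The high fat gap was 0.24 without epididymal B, 0.29 without epididymal C and 0.72 without epididymal A, and with the libraries numbered 50 to 53 alone it was 0.77.

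Abundant short transcripts were also called higher more often than all genes tested. Of the 350 tested genes with a mean of at least 1000 and under 1500 bases of exon, which include many members, 20.3% were called higher in epididymal fat on chow and 26.3% on high fat, with median log2 changes of 0.37 and 0.41. The share of members called higher was thus no higher than in that class. Of the 350 genes 30 were called lower on chow and 20 on high fat, and 276 and 273 had positive changes, whereas no member was called lower. The 69 cytosolic ribosomal protein genes had median log2 changes of 0.18 on chow, with none called by limma and 4 at an unadjusted p under 0.05, and of 0.41 on high fat, with 5 called higher. The sum of the members over the sum of the cytosolic ribosomal protein genes was 1.00, 1.13 and 0.824 in mesentery and 1.35, 1.16 and 1.28 in epididymal fat on chow, without overlap. On high fat it was 1.11, 1.18 and 0.862 in mesentery and 0.924, 1.31 and 1.11 in epididymal fat, with overlap.

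Markers of other cell types also differed between tissues. Summed adipocyte markers ran from 118845 to 146269 normalized counts in mesentery and 374029 to 592722 in epididymal fat on chow, where 7 of 8 were called higher, and from 117343 to 167535 and 323407 to 479271 on high fat, where none was called and 1 had an unadjusted p under 0.05. Fibroblast markers were called higher for 6 of 6 on both diets, with sums from 6365 to 9909 in mesentery and 18089 to 57218 in epididymal fat on chow, and from 4426 to 9268 and 44576 to 60516 on high fat. Macrophage and leukocyte markers were called higher for 4 of 13 on chow and 11 of 13 on high fat, with sums from 2060 to 11483 in mesentery and 7595 to 93930 in epididymal fat on chow, and from 6553 to 29038 and 166955 to 423195 on high fat. Red cell markers were called higher for 4 of 4 and pancreatic acinar markers lower for 6 of 6 on both diets. Of the 12 endothelial markers 7 were called lower and 1 higher on chow, and 8 lower and 1 higher on high fat. The part of these cells in the difference of the members was not tested.

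**Figure D2:**
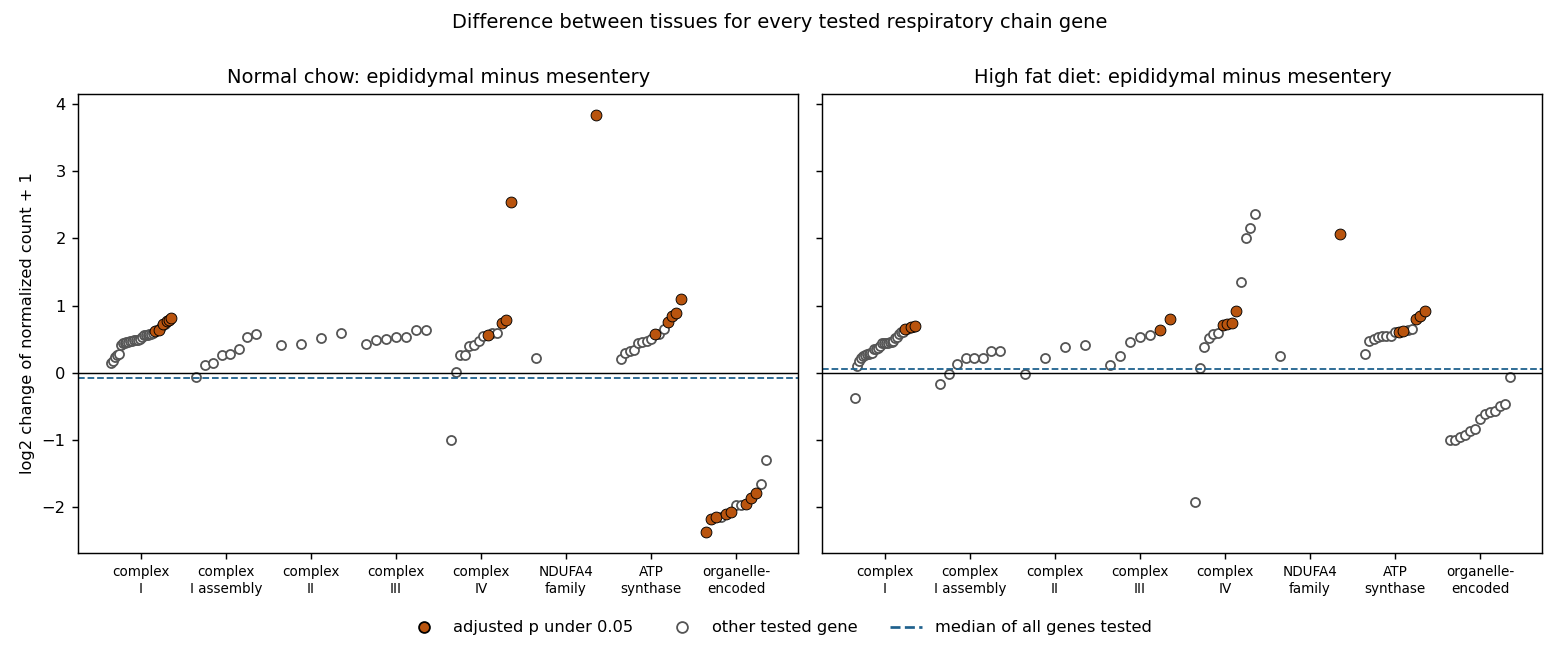
Log2 change (epididymal minus mesentery, normalized count + 1) of every tested nuclear gene by complex and of the 13 organelle-encoded genes, on chow (left) and high fat (right). Filled points have a limma adjusted p under 0.05 and the dashed line is the median of all genes tested. Nearly all nuclear genes lie above 0, and all 13 organelle-encoded genes lie below it.

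ATP synthase, which makes ATP from the proton gradient, was higher in epididymal fat. All 15 members had positive changes on both diets, with medians of 0.50 on chow and 0.60 on high fat, and 5 were called on each diet. Atp5g3 (ENSMUSG00000018770) is one of 3 genes for the same mature c subunit of the rotor ring. It was at 2614, 2633 and 2999 normalized counts in mesentery and 5272, 6404 and 5915 in epididymal fat on chow, and at 2665, 2697 and 3381 against 4905, 5425 and 6136 on high fat. No mesentery library reached an epididymal one on either diet. The log2 change was 1.09 (SE 0.17, adjusted p 0.00103) on chow and 0.92 (SE 0.17, adjusted p 0.005) on high fat. It was called in all 23 alternatives on chow and in 22 of 23 on high fat, where the adjusted p was 0.0507 after rescaling to the same total.

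The other 2 c subunit genes showed smaller differences. Atp5g1 changed by 0.35 on chow (adjusted p 0.381) and 0.65 on high fat (adjusted p 0.0999), and Atp5g2 by 0.21 (adjusted p 0.515) and 0.50 (adjusted p 0.102); neither was called. Atp5g3 accordingly took 42.1% to 52.3% of the summed normalized counts of the 3 genes in chow mesentery and 57.0% to 64.1% in chow epididymal fat, without overlap. On high fat its share was 45.1% to 50.3% in mesentery and 50.7% to 53.4% in epididymal fat, where the gap was narrow.

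Atp5b, the most abundant member, was at 8653, 9064 and 8021 normalized counts in mesentery and 15366, 17587 and 13443 in epididymal fat on chow. Its log2 change was 0.84 (SE 0.21, adjusted p 0.0205). On high fat it was 0.54 (SE 0.21, adjusted p 0.157) and not called, with epididymal replicate A at 10444 and mesentery replicate A at 9932. Atp5c1, the gamma subunit of the central stalk, changed by 0.89 (adjusted p 0.0118) on chow and 0.55 (adjusted p 0.127) on high fat. Atp5pb, subunit b of the peripheral stalk, was called on both diets, at 0.76 (adjusted p 0.0114) and 0.61 (adjusted p 0.0463). Its call held in 20 of 23 alternatives on chow and in 8 of 23 on high fat.

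Atp5mpl, a small membrane subunit, was at 1065, 1227 and 1146 normalized counts in mesentery and 1620, 1807 and 1716 in epididymal fat on chow, and at 1251, 1153 and 1256 against 1972, 2150 and 2445 on high fat. The groups were apart on both diets. Its log2 change was 0.58 (SE 0.15, adjusted p 0.0196) and 0.84 (SE 0.15, adjusted p 0.00354), and on high fat it was called in all 23 alternatives. Atp5k and Atp5l, the e and g subunits of the membrane part, where ATP synthase dimers form, were called on high fat, at 0.80 (adjusted p 0.0148) and 0.62 (adjusted p 0.0376). On chow they changed by 0.32 (adjusted p 0.301) and 0.50 (adjusted p 0.0719).

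Complex IV, the oxidase, had 4 calls on each diet among 14 tested members, with median log2 changes of 0.51 on chow and 0.72 on high fat. Cox7b, a small nuclear subunit, was at 1562, 1493 and 1409 normalized counts in mesentery and 2456, 2610 and 2400 in epididymal fat on chow. On high fat it was at 1762, 1397 and 1569 against 2583, 3004 and 3421, again without overlap. The log2 change was 0.74 (SE 0.16, adjusted p 0.00783) and 0.93 (SE 0.16, adjusted p 0.00301), and Cox7b was called in all 23 alternatives on both diets. Cox8a, the common form of subunit VIII, changed by 0.78 (adjusted p 0.0127) and 0.73 (adjusted p 0.0265). Cox6b1, which lies on the intermembrane side of the complex, changed by 0.57 (adjusted p 0.0494) and 0.74 (adjusted p 0.021), and its call held in 9 of 23 alternatives on chow and 17 on high fat. For Cox8a these counts were 20 and 16. Cox7c was called on high fat, at 0.71 (adjusted p 0.0293), and not on chow, at 0.47 (adjusted p 0.114). Cox6a1, the highest of all per kilobase, changed by 0.55 (adjusted p 0.132) and 0.59 (adjusted p 0.129), with neither called.

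Complex I is the largest group, with 32 subunits among the members and 8 assembly factors. All 32 subunits had a positive change on chow (median 0.52, 6 called) and 31 on high fat (median 0.45, 3 called). Those called were accessory subunits, which surround the catalytic core. Ndufa1 and Ndufa3 were called on both diets, Ndufa1 at 0.62 (adjusted p 0.0425) and 0.64 (adjusted p 0.047), and Ndufa3 at 0.64 (adjusted p 0.0477) and 0.68 (adjusted p 0.0496). These 4 adjusted p-values lie close to the threshold, and the calls held in 12 and 9 of 23 alternatives for Ndufa1 and in 10 and 7 for Ndufa3. On chow Ndufb9 changed by 0.81 (adjusted p 0.028), Ndufa7 by 0.78 (adjusted p 0.0271), Ndufa5 by 0.77 (adjusted p 0.0233) and Ndufa10 by 0.72 (adjusted p 0.0189). On high fat Ndufa2 changed by 0.70 (adjusted p 0.0261). Ndufa8, the most abundant complex I member, overlapped between tissues and changed by 0.26 (adjusted p 0.656) and 0.10 (adjusted p 0.929).

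The assembly factors, which help build complex I and are not part of it, were not called on either diet and none had an unadjusted p under 0.05. Their median log2 changes were 0.27 on chow and 0.22 on high fat. Together they made up 1.83% to 2.27% of the summed level of the 76 unrestricted members in chow mesentery and 1.58% to 1.73% in chow epididymal fat. Among the members, the flavoprotein subunit Ndufv1 was the only complex I subunit with a negative change on high fat, at -0.38 (adjusted p 0.452). It is part of the NADH-oxidising module of complex I.

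Complexes II and III showed the same direction with fewer calls. Complex II, which is also succinate dehydrogenase of the citric acid cycle, had 4 positive changes of 4 on chow (median 0.48) and 3 of 4 on high fat (median 0.30), with none called by limma and 2 on chow and 0 on high fat at an unadjusted p under 0.05. Sdhb, its iron-sulfur subunit and most abundant member, changed by 0.43 (adjusted p 0.305) and 0.38 (adjusted p 0.433). All 7 complex III members had positive changes on both diets, with medians of 0.53 and 0.53. On chow none was called and 6 had an unadjusted p under 0.05. On high fat Uqcr10 changed by 0.79 (adjusted p 0.0269) and Uqcrh, the acidic hinge protein, by 0.63 (adjusted p 0.0217). Uqcrb, the most abundant of them, changed by 0.50 (adjusted p 0.128) and 0.56 (adjusted p 0.116).

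The make-up of the chain was given as each complex's share of the summed level. Complex I subunits made up 33.4% to 38.3% of the summed level of the unrestricted members over all 12 libraries, ATP synthase 24.97% to 29.8%, complex IV 14.9% to 17.2%, complex III 10.5% to 11.2% and complex II 5.29% to 6.71%. The share of complex IV on high fat was 14.9% to 15.7% in mesentery and 16.3% to 17.2% in epididymal fat, without overlap, and on chow the tissues overlapped. These shares do not depend on how the libraries were scaled.

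Among called members the largest tissue difference on both diets belonged to Ndufa4l2 (ENSMUSG00000040280), a hypoxia-inducible paralog of Ndufa4 known to lower respiratory chain activity. It was at 84.3, 99.5 and 177 normalized counts in mesentery on chow and 1788, 1426 and 1738 in epididymal fat. Its high fat levels were 506, 161 and 235 in mesentery and 904, 1334 and 1188 in epididymal fat. The tissues did not overlap on either diet, and high fat epididymal libraries lay below all chow epididymal ones. The log2 change was 3.83 (SE 0.37, adjusted p 2.67e-05), a 14.3-fold difference, on chow and 2.07 (SE 0.37, adjusted p 0.00389) on high fat. It was called in all 23 alternatives on both diets. Its partner Ndufa4, a subunit of complex IV, changed by 0.22 (adjusted p 0.501) and 0.25 (adjusted p 0.512), so that Ndufa4l2 took 2.01% to 4.59% of the pair's normalized counts in chow mesentery and 21.9% to 28.8% in chow epididymal fat.

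Pericyte genes differed alongside Ndufa4l2. Summed smooth muscle and pericyte markers ran from 1314 to 1579 normalized counts in mesentery and 12108 to 22298 in epididymal fat on chow, and from 1615 to 3780 and 5847 to 11821 on high fat. Of the 7 markers 5 were called higher on chow and 3 on high fat, and none of the pericyte markers Rgs5, Pdgfrb and Cspg4 was at 0 in any library. Kcnj8, a potassium channel gene of pericytes chosen after values were seen, was at 80.8, 102 and 144 normalized counts in mesentery and 2519, 2568 and 3247 in epididymal fat on chow. Its high fat levels were 384, 319 and 369 in mesentery and 518, 903 and 793 in epididymal fat, with a log2 change of 1.01 (adjusted p 0.025) against 4.69 (adjusted p 1.77e-07) on chow. Abcc9 and Notch3, chosen at the same time, changed by 3.16 (adjusted p 0.0084) and 3.12 (adjusted p 0.0287) on chow and were not called on high fat, at 1.55 (adjusted p 0.21) and 2.41 (adjusted p 0.11). Their part in the Ndufa4l2 difference was not tested.

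**Figure D3:**
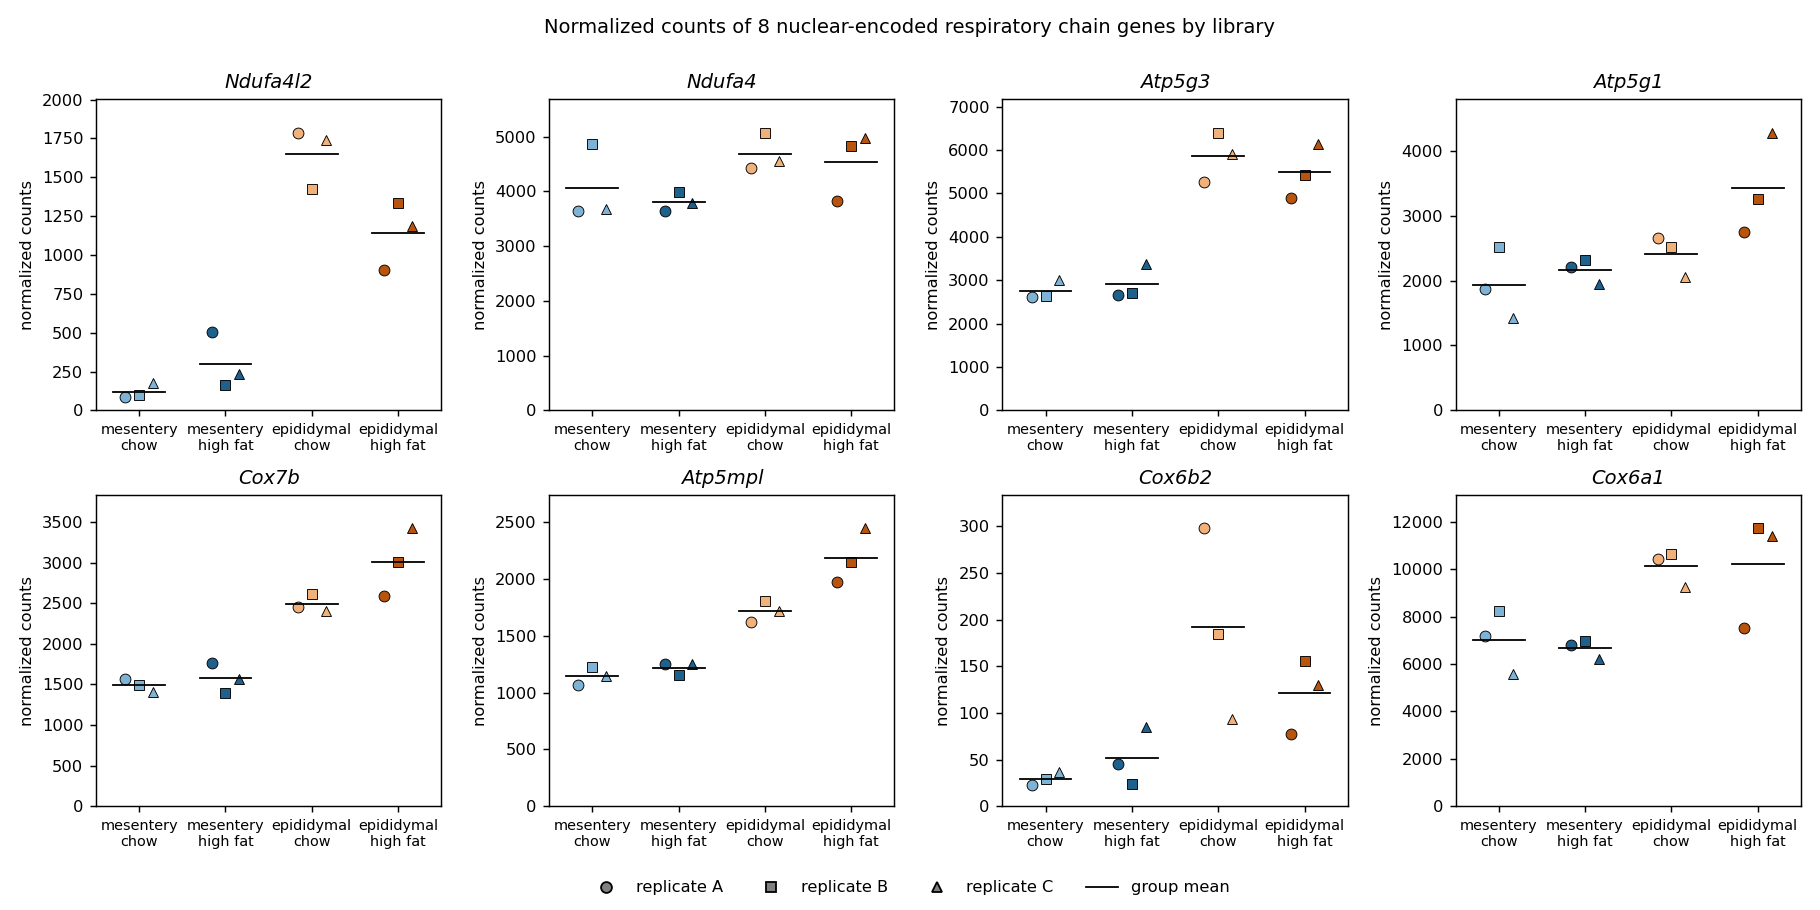
Normalized counts of 8 members in each library (linear axes from 0; marker shape gives the replicate letter, bars are group means). Ndufa4l2, Atp5g3, Cox7b and Atp5mpl are separated by tissue on both diets, whereas Ndufa4 overlaps.

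The remaining tissue-restricted isoforms were low, so their levels rest on few reads. Cox6b2, the testis form of Cox6b1, was at 22.8, 28.7 and 36.6 normalized counts in mesentery and 298, 184 and 92.9 in epididymal fat on chow. It was called there, with a log2 change of 2.54 (SE 0.54, adjusted p 0.00783), while on high fat it changed by 1.35 (adjusted p 0.161). Even in epididymal chow A it was 4.76% of the sum of the pair. Cox7b2, the testis form of Cox7b, changed by -0.99 (adjusted p 0.61) and -1.92 (adjusted p 0.323). Cox8c was at 50.7 normalized counts in mesentery chow C and at most 16.8 in the others, with 0 reads in 6 libraries, and was not tested.

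Forms known from muscle and brown fat were led by single libraries. Cox8b was at 325 normalized counts in epididymal high fat B and at 12.8 to 77.1 in the other 11 libraries, and Cox7a1 was at 173 there and at 9.70 to 75.7 elsewhere. The same library had the highest Ucp1, the uncoupling protein of brown fat, at 391 normalized counts, and the highest Cidea, at 90.0. Their part in these levels was not tested. Common partners far exceeded these forms: in epididymal high fat B Cox8b was 5.43% of the Cox8b and Cox8a sum, and Cox7a1 was 4.06% of the Cox7a1 and Cox7a2 sum. Cox7a2 changed by 0.42 on chow (adjusted p 0.144) and 0.39 on high fat (adjusted p 0.213), and Cox7a2l, a supercomplex assembly factor, by 0.27 (adjusted p 0.534) and 0.08 (adjusted p 0.925). Many of the small subunits have processed pseudogenes, and how the authors' counting treated reads shared with them is not given in the sources used here, so single levels carry that uncertainty.

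The diet comparisons asked what the high fat diet changed within each tissue. No member was called in mesentery (1 at an unadjusted p under 0.05), where 0.0135% of all genes tested were called, and none in epididymal fat (3 at an unadjusted p under 0.05), where 0.549% were called. The interaction called none (1 at an unadjusted p under 0.05), against 0.0045% of all genes. edgeR and DESeq2 on the recovered reads also called none in any of these 3. The median log2 change (high fat minus chow) was 0.04 in mesentery, with 49 of 82 positive, and -0.04 in epididymal fat, with 32 of 82 positive. Over all genes tested the medians were 0.00 and 0.10. The numbers of positive members moved with single libraries. In mesentery 72 were positive without chow B and 28 without chow C. In epididymal fat 70 were positive without high fat A and 21 without high fat C.

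These zero counts leave room for moderate changes. Over the 76 unrestricted members the log2 changes ran from -0.31 to 0.47 in mesentery and from -0.48 to 0.49 in epididymal fat, and the median half-width of the 95% interval was 0.45 in both. The interval held a rise of 0.5 for 35 members in mesentery and 30 in epididymal fat, and a fall of 0.5 for 19 and 38.

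**Figure D4:**
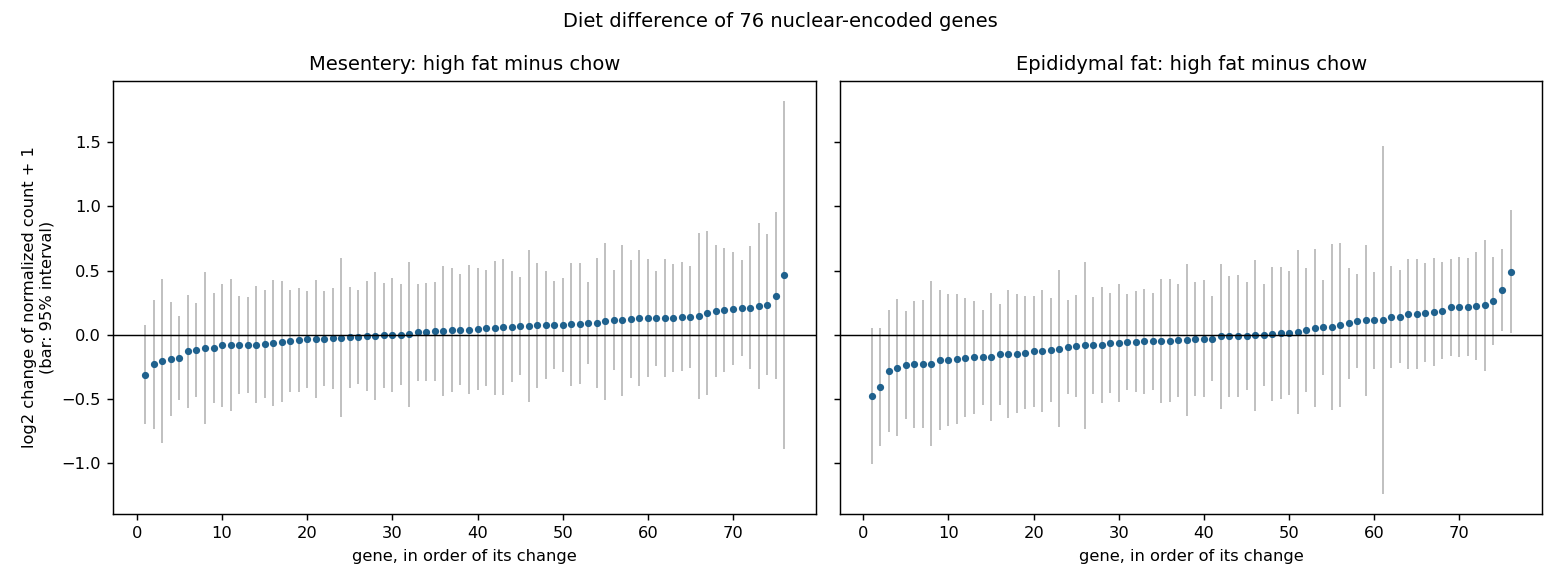
Log2 change from chow to high fat (normalized count + 1) of the 76 members that are not tissue-restricted, in order of size, with 95% intervals as bars, in mesentery (left) and epididymal fat (right). Changes run from -0.31 to 0.47 and from -0.48 to 0.49.

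The members with the lowest p in the diet comparisons were not called. In mesentery Ndufa4l2 had a log2 change of 1.22 (SE 0.37, adjusted p 0.572), and the 2 groups overlapped, since high fat B lay at 161 and chow C at 177. Next came Atp5k at -0.31, Cox6a2 at 1.86 and Atp5pb at 0.21, all with adjusted p of at least 0.886. In epididymal fat Cox6a2, a muscle form, had 6, 1 and 0 reads on chow and 54, 21 and 35 on high fat, which are 4.70, 0.869 and 0 against 60.7, 17.3 and 24.8 normalized counts. The groups did not overlap, but the adjusted p was 0.463, and a floor of 3 reads lies between 2.12 and 4.22 normalized counts, so the size of the change is poorly fixed. Atp5mpl changed by 0.35 (adjusted p 0.599), Atp5g1 by 0.49 (adjusted p 0.698) and Cox7a1 by 1.42 (adjusted p 0.754). For the interaction, Ndufa4l2 had a difference of -1.76 between the diet effects (SE 0.52, adjusted p 0.592). It was followed by Atp5k at 0.48, Sdha at -0.53 and Ndufv1 at -0.61.

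Organelle-encoded respiratory chain genes went the opposite way between tissues. Their 13 summed genes were at 3535711, 1749885 and 572513 normalized counts in chow mesentery and 337713, 530382 and 375009 in chow epididymal fat. Mesentery A stood far above its replicates, and mesentery C only just above epididymal B. All 13 log2 changes were negative on chow, with a median of -1.97, and 8 were called lower: ND6 at -2.17 (adjusted p 0.00629), ND5 at -1.85, ATP8 at -2.14, ND4L at -2.07, ND4 at -2.09, CYTB at -2.36, ND2 at -1.78 and COX2 at -1.95. The adjusted p of COX2 was 0.0454. ND1, ND3, COX1, COX3 and ATP6 changed by -1.65, -1.97, -1.30, -2.14 and -1.96 and were not called. Without single libraries the count of calls was 4 without mesentery A or mesentery B and 12 without mesentery C. It was 3 without epididymal A, 5 without epididymal B or epididymal C, and 10 without high fat epididymal A. On the recovered reads edgeR called 11 of the 13 lower on chow and DESeq2 12.

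On high fat the organelle genes were also all negative (12 of 13 without mesentery C, epididymal B or epididymal C), with a median of -0.68. None was called by limma on the values as deposited, by edgeR or by DESeq2, and 1 had an unadjusted limma p under 0.05. Among the alternatives, limma called 1 lower after rescaling to the same total and 1 after rescaling without organelle genes. With the libraries numbered 50 to 53 alone it called 3 lower. Sums were 723676, 1355925 and 1025159 normalized counts in mesentery and 753954, 629913 and 515410 in epididymal fat, with overlap. Between diets all 13 were negative in mesentery (median -0.58) and all 13 positive in epididymal fat (median 0.67), with none called in either or in the interaction by limma and none at an unadjusted p under 0.05. The mesentery direction rests on chow A: without that library 6 of 13 were negative and the median was 0.03, while without chow C it was -1.27. The 13 genes are transcribed together from 1 genome, so their shared sign is not 13 separate observations.

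The organelle sum divided by the member sum does not depend on scaling. It was 21.3, 8.43 and 3.89 in chow mesentery and 1.28, 2.01 and 1.64 in chow epididymal fat. On high fat it was 3.92, 7.58 and 6.16 in mesentery and 3.92, 2.29 and 1.83 in epididymal fat, where the replicates A of both tissues, numbered 88, all but coincided. The tissues were apart on chow and met on high fat. In chow mesentery A, B and C the summed pancreatic acinar markers had the same order as this ratio, at 271010, 205451 and 42891 normalized counts. In high fat mesentery they were at 129783, 121968 and 67919, an order that differed from that of the ratio. Whether acinar RNA, RNA quality or cell handling moved with this ratio was not tested.

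Other genes of the pathway gave fewer calls. Of the 86 genes in these lists 10 were called higher (11.6%) and 1 lower in epididymal fat on chow. Over all genes tested, 7.32% were called higher and 5.47% lower there. On high fat 3 were called higher (3.49%), a smaller share than the 4.91% of all genes tested. None was called in either diet comparison by limma (3 in mesentery and 5 in epididymal fat at an unadjusted p under 0.05). Cox4i1, the common form of complex IV subunit 4, changed by 0.67 (adjusted p 0.0413) on chow and 0.66 (adjusted p 0.0577) on high fat. Cox4i2, its hypoxia-inducible form, was at 51.2, 17.9 and 39.4 normalized counts in mesentery and 329, 357 and 339 in epididymal fat on chow, a log2 change of 3.32 (SE 0.51, adjusted p 0.00093). On high fat it changed by 1.99 (adjusted p 0.0295). Etfa and Etfb, the electron transfer flavoprotein that feeds electrons from fatty acid oxidation, changed by 1.14 (adjusted p 0.00742) and 1.01 (adjusted p 0.0454) on chow.

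Ucp2, an inner membrane carrier that leukocytes also express, was called on both diets, at 1.92 (adjusted p 0.00218) and 1.66 (adjusted p 0.00825), beside the leukocyte markers given above. Vdac1, the outer membrane channel, rose by 0.75 on chow (adjusted p 0.0286). Slc25a4, Sdhaf2, Hspd1 and Hspa9 were also called higher in epididymal fat on chow. The DNA polymerase gene Polg fell by 1.11 on chow (adjusted p 0.0376) and was the only gene of these lists called lower. Dmac1, an assembly factor, was called on high fat at 1.01 (adjusted p 0.0161). Among the 15 regulators of mitochondrial gene expression no other call was made, and the median log2 changes were -0.28 on chow and -0.17 on high fat. Ppargc1a was at 19.8 to 386 normalized counts over the 12 libraries.

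The 9 genes left out by the biotype column were tested in the same fit. On chow 8 of 9 changes were positive (median 0.58) and Atp5d and Cox6c were called, at 0.69 (adjusted p 0.0133) and 0.67 (adjusted p 0.025). On high fat 8 of 9 were positive (median 0.26, against 0.47 over the members), and Cox6c and Ndufb1 were called, at 0.75 (adjusted p 0.0201) and 0.76 (adjusted p 0.0463). Ndufs1, a core subunit of complex I, was the exception, at -0.03 and -0.06.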

How the data were processed

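RNA-seq was measured in 12 libraries in 4 groups. The deposited file holds normalized counts per gene, a signal made by the authors by dividing read counts by a size factor per library, per the file headers and the values. The submitters' processing notes name STAR 2.7.9a, featureCounts, DESeq2 1.34.0 and mm39, and strand use is not given in the sources used here. All of the values (100%) came out as whole reads within a tolerance of 0.01. These reads count alignments without molecular identifiers, so floors cover counting error only. Groups came from the sample titles. Values were tested as log2(normalized count + 1) in limma 3.58.1 under R 4.3.3, with eBayes and a mean-variance trend, 4 group means, 22238 genes with a mean of at least 10, and Benjamini-Hochberg adjustment within a contrast. Log2 changes understate those of low genes. edgeR 4.0.16 and DESeq2 1.42.0 on the recovered reads, other pseudocounts, filters and scalings, the number range, a replicate block and each library left out were alternatives. Steps were tested on simulated data. The members and lists were chosen with earlier results of these data known. Named genes were every called member, the most abundant member per complex, the tissue-restricted isoforms and partners, the organelle-encoded genes, called genes of the other lists, and the 4 lowest p-values where nothing was called. Exon lengths and promoters are of GRCm38 and no coordinates of the authors' build are given.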

Additional observations from a re-analysis of the deposited data

How the results depend on the processing

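In none of the 23 alternatives per contrast was a member called lower in epididymal fat, and the diet and interaction counts were 0 in every one. The number of members called higher was 16 on chow and 15 on high fat. It became 40 and 3 after rescaling to the same total, 30 and 8 after rescaling without organelle genes, 5 and 5 with edgeR, 30 and 37 with DESeq2, 28 and 28 with the number range as a covariate, and 26 and 38 with the libraries numbered 50 to 53 alone. Leaving out each library gave 4 to 26 on chow and 4 to 29 on high fat. The number of organelle-encoded genes called lower on chow, 8, was 13 with libraries numbered 50 to 53 and 3 to 12 with each library left out. The median change of the members on high fat, 0.47, was 0.23 after rescaling without organelle genes and 0.70 with libraries numbered 50 to 53. With a replicate block for the number that a mesentery and an epididymal library share, 13 and 11 members were called. Deviations of same-numbered libraries from their group means correlated at 0.027, 0.53 and 0.58 on chow and at -0.15, 0.15 and -0.11 on high fat. So few values cannot settle whether that number pairs the samples. Adding the 9 left-out genes was chosen after seeing the data. With 3 libraries a group, changes near 0.5 on the log2 scale are often within the interval.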

Other observations

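Mitochondrial ribosomal protein genes, which translate the organelle-encoded subunits and were not part of the comparisons above, also had mostly positive changes between tissues (epididymal minus mesentery). Of 69 tested genes 58 had a positive log2 change on chow (median 0.28, 4 called higher) and 57 on high fat (median 0.26, 5 called higher), with none called lower. These calls are 5.80% of the list on chow, against 7.32% of all genes tested, and 7.25% on high fat, against 4.91%. On diet, no gene of this list was called by limma in either tissue, with 0 in mesentery and 3 in epididymal fat at an unadjusted p under 0.05.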
